A study of Homo sapiens with 2 samples.

Results

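The NF-kB family examined here comprised 10 genes, chosen by name from the 58174 genes of the deposited table: the 5 subunit genes NFKB1, REL, RELA, NFKB2 and RELB, the 3 classical inhibitor (IkB) genes NFKBIA, NFKBIB and NFKBIE, and the 2 feedback genes TNFAIP3 and IER3. All 10 were found by Ensembl identifier. They were measured by RNA sequencing in PC3, an established human prostate cancer cell line. There were 2 libraries, 1 from PC3 cells transfected with a POH1 small interfering RNA (siRNA) and 1 from PC3 cells transfected with a control siRNA. POH1 (gene PSMD14) removes ubiquitin chains from proteins as they enter the proteasome, and the design asks which transcripts differ when it is targeted. With 1 library per group there was no replicate error, so no test was made, and every difference is one between these 2 libraries. The labels name neither the siRNA sequences nor the time after transfection. In such bulk samples fewer cells with a message and less message per cell cannot be told apart.

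NF-kB transcription factors are dimers of REL-homology proteins that inhibitor proteins hold in the cytoplasm. In the canonical pathway, receptors such as those for TNF and interleukin 1 activate the IkB kinase complex, IkB proteins are ubiquitinated and degraded by the proteasome, and dimers of RELA, REL and the NFKB1 product enter the nucleus. In the non-canonical pathway, the kinase NIK (gene MAP3K14) and IKK-alpha (CHUK) direct the partial digestion of the NFKB2 precursor by the proteasome, which frees dimers of its product with RELB. Many of these genes are themselves NF-kB targets: NFKBIA and TNFAIP3 are textbook negative feedback genes, and NFKB2 and RELB, parts of the non-canonical arm, are induced through the canonical one.

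The values were TPM, a relative abundance in which each gene's reads are corrected for length and all genes of a library share a set total. They summed to 999968 TPM in the POH1 siRNA library and 999955 TPM in the control siRNA library, and the read depth is unknown because TPM does not keep it. PSMD14 was at 35.1 TPM in the POH1 siRNA library, against 50.9 TPM in the control siRNA library. Its difference in log2(TPM + 1) was -0.52, short of 1.5-fold (0.585), and -0.24 after the running median of genes of like GC content was subtracted. Of 587 other genes like it in mean TPM and GC content, 23.3% had a difference as low. The line was checked against fixed markers: the 4 epithelial genes EPCAM, KRT8, KRT18 and KRT19 summed to 2886 TPM with POH1 siRNA and 2595 TPM with control siRNA, and the prostate secretory genes KLK2 and KLK3 were listed at 0 in both libraries. Of 5 leukocyte markers 3 were listed at 0 in both, and CD14 was at 2.11 TPM with POH1 siRNA and 1.59 TPM with control siRNA. Of the fibroblast markers, COL1A1 was at 47.8 TPM with POH1 siRNA and 30.9 TPM with control siRNA, while COL1A2 and DCN were at 0.109 TPM or less in both. The part of these in the results was not tested.

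RefSeq promoter sequences (build GRCh38.p14, 250 bases before to 50 after a start site) were found for 7 of the 10 genes, in 12 promoters. RELB, NFKBIE and IER3 were not matched. The NF-kB consensus, a decamer that opens with GGG, closes with CC and also limits which bases stand between them, was searched on both strands. It was found in 6 of the 7 genes, against 13.3% of 27305 genes with a promoter. By promoter it was found in 7 of the 12 (58.3%), against 11.3% of 35116 promoters in the table. The looser pattern GGGNNNNNCC, of which the consensus is a subset, was in at least 1 promoter of all 7 genes, but also in 58.7% of all promoters. The AP-1 heptamer TGACTCA was in none of the 12, against 4.95% of all promoters. The matches are shown because they are a sequence feature that 6 of the 7 genes share. Of the windows found, 2 more in NFKB2 and 1 more in NFKBIB are not printed, and each line gives 30 bases on the gene's strand with the matches in capitals.
NFKBIA, chr14:35404811-35404840, minus strand: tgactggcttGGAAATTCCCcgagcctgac
NFKBIB, chr19:38899932-38899961, plus strand: ggcgtggtgGGGAATTTCCCgcagggcgga
NFKB1, chr4:102501300-102501329, plus strand: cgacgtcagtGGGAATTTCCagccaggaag
REL, chr2:60881518-60881547, plus strand: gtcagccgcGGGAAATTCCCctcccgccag
TNFAIP3, chr6:137867188-137867217, plus strand: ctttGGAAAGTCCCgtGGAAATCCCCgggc
NFKB2, chr10:102395674-102395703, plus strand: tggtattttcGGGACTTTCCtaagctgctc
NFKB2, an upstream start site, chr10:102394462-102394491, plus strand: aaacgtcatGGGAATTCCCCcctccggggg

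The same decamer, GGGAATTTCC read on one strand or the other, stood in the promoters of NFKBIA, NFKBIB, NFKB1 and REL, and it was in 0.145% of all promoters. A different decamer, GGGACTTTCC, stood in those of TNFAIP3 and NFKB2, and was in 0.191% of all promoters. Another, GGGAAATTCC, stood in those of NFKBIB and REL, and was in 0.162% of all promoters. These decamers were picked from the promoters of the family because its genes shared them. Their low shares over all promoters therefore cannot test whether the family holds them more often than other genes. In TNFAIP3 2 matches lay side by side, from 67 to 46 bases before the start site. RELA held no match to the consensus in either of its promoters. Such matches are descriptions of letters and not measured binding sites.

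Most of the 10 genes had slightly larger values in the POH1 siRNA library, and in 3 of them, NFKBIB, TNFAIP3 and IER3, the difference passed 1.5-fold. Genes are called higher or lower below where log2(TPM + 1) in the POH1 siRNA library less that in the control siRNA library reached the size of a 1.5-fold difference (0.585). As deposited, of the 10 genes 3 were higher, none was lower and 7 lay within 1.5-fold. Over all 15008 genes whose mean reached 1 TPM, 10.2% were higher and 8.88% were lower. The median difference of the 10 genes was 0.31 on the log2 scale, against 0.12 over the 15008 genes. After GC adjustment it was 0.26, against 0.15 over all genes. Above 0 were 9 of the 10, against 61.2% of the 15008 genes, and 8 of the 10 exceeded the median of all genes. With the libraries scaled to a median log2 ratio of 0, 8 of the 10 were above 0, since RELA then lay at -0.10. All but REL reached a mean of 1 TPM.

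**Figure D1:**
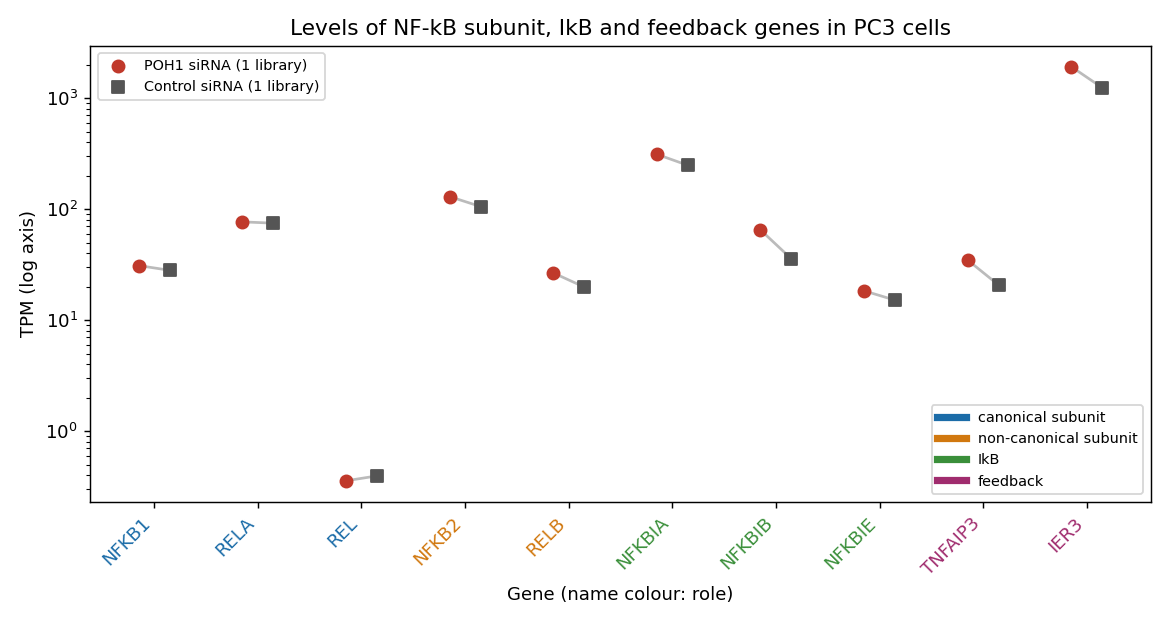
TPM of each gene on a log axis in the POH1 siRNA library (red circles) and the control siRNA library (grey squares), with 1 library per group and gene names coloured by role. IER3 is the most abundant in both libraries, REL is under 1 TPM in both, and the steepest lines are those of NFKBIB, TNFAIP3 and IER3.

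The levels spanned more than 3 orders of magnitude and kept nearly the same order in both libraries. From high to low in the POH1 siRNA library the order was IER3, NFKBIA, NFKB2, RELA, NFKBIB, TNFAIP3, NFKB1, RELB, NFKBIE and REL. In the control siRNA library the only exchange was that NFKB1 (28.2 TPM) stood above TNFAIP3 (20.7 TPM), whereas in the POH1 siRNA library TNFAIP3 (34.9 TPM) stood above NFKB1 (31.1 TPM). IER3 ranked 60 among all listed genes in the POH1 siRNA library and 100 in the control siRNA library. Without replicates, no spread is available to say which neighbours in this order differ.

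The canonical subunit genes were close to equal in the 2 libraries. RELA, which encodes p65 with its strong activation domain, was at 76.95 TPM in the POH1 siRNA library and 74.9 TPM in the control siRNA library, a log2 difference of 0.04. NFKB1, whose precursor yields the partner subunit p50, was at 31.1 TPM in the POH1 siRNA library and 28.2 TPM in the control siRNA library, a log2 difference of 0.14. REL, which encodes c-Rel and is best known from lymphocytes, was at 0.356 TPM with POH1 siRNA and 0.395 TPM with control siRNA, too low for a fold to be read. The 3 genes summed to 108 TPM in the POH1 siRNA library and 103 TPM in the control siRNA library.

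Both non-canonical subunit genes had larger values in the POH1 siRNA library, by less than 1.5-fold. NFKB2, whose precursor is both an inhibitor and the source of p52, was at 130.2 TPM in the POH1 siRNA library and 106 TPM in the control siRNA library, a 1.23-fold difference. RELB, the partner of p52, was at 26.7 TPM in the POH1 siRNA library and 19.9 TPM in the control siRNA library, a 1.34-fold difference. NFKB2 was the most abundant subunit message in both libraries. It made up 49.1% of the summed subunit TPM in the POH1 siRNA library and 46.2% in the control siRNA library. RELA made up 29.01% with POH1 siRNA and 32.7% with control siRNA. The ratio of non-canonical to canonical subunit TPM was 1.45 in the POH1 siRNA library and 1.21 in the control siRNA library, and that of RELB to RELA was 0.347 with POH1 siRNA and 0.266 with control siRNA.

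**Figure D2:**
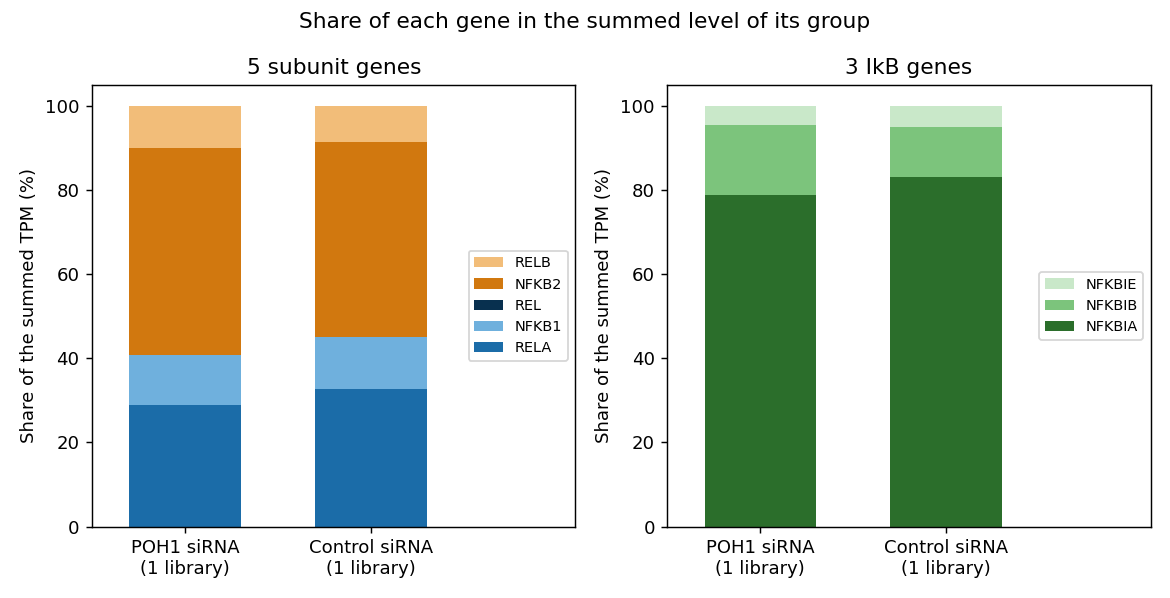
Share (%) of each gene in the summed TPM of the 5 subunit genes (left) and of the 3 IkB genes (right), in the POH1 siRNA library and the control siRNA library, 1 library each. NFKB2 holds the largest share of the subunit genes and NFKBIA of the IkB genes in both libraries, and the share of NFKBIB is 16.5% in the POH1 siRNA library and 11.9% in the control siRNA library.

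All 3 IkB genes had larger values in the POH1 siRNA library, and NFKBIB was the one past 1.5-fold. NFKBIB encodes IkB-beta, an inhibitor that is degraded more slowly than IkB-alpha in many cells. It was at 65.3 TPM in the POH1 siRNA library and 35.6 TPM in the control siRNA library, 1.83-fold higher with a log2 difference of 0.85. This was the largest difference of the 10 genes as deposited, though not after GC adjustment (0.67, against 0.80 for TNFAIP3), and 3.70% of the 15008 genes had one as high. Of 581 other genes within 2-fold of its mean TPM and 2.5 percentage points of its GC content, 4.13% did. SIRT2 overlaps exons of NFKBIB from the opposite strand and was at 62.8 TPM in the POH1 siRNA library and 43.8 TPM in the control siRNA library. Whether reads were assigned by strand is not given in the sources used here, so part of either value may belong to the other gene. The sum of both genes differed by 0.68 on the log2 scale, still past 1.5-fold.

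NFKBIA, which encodes IkB-alpha, the fast inhibitor resynthesised after activation, was at 313 TPM in the POH1 siRNA library and 249 TPM in the control siRNA library. Its log2 difference was 0.33, and 28.1% of the 15008 genes had one as high. NFKBIE, which encodes IkB-epsilon, was at 18.4 TPM in the POH1 siRNA library and 15.1 TPM in the control siRNA library, a log2 difference of 0.26. The ratio of NFKBIA to NFKBIE was 17.01 in the POH1 siRNA library and 16.4 in the control siRNA library. The ratio of NFKBIA to NFKBIB was 4.797 in the POH1 siRNA library and 6.98 in the control siRNA library. Summed IkB TPM was 1.496 times summed subunit TPM in the POH1 siRNA library and 1.31 times in the control siRNA library. These are ratios of messages; the proteins, whose degradation is the step that runs through the proteasome, were not measured here.

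Both feedback genes were higher past 1.5-fold. TNFAIP3 encodes A20, a ubiquitin-editing enzyme that ends signalling from TNF and Toll-like receptors. It was at 34.9 TPM in the POH1 siRNA library and 20.7 TPM in the control siRNA library, 1.69-fold higher. Its log2 difference was 0.73, and 5.95% of the 15008 genes had one as high. Among 846 other genes like it in mean TPM and GC content, 4.96% did. IER3, an immediate early gene that encodes a small regulator of survival, had 1929 TPM in the POH1 siRNA library and 1244 TPM in the control siRNA library, a log2 difference of 0.63. Of all 15008 genes 8.44% had a difference as high, but of the 121 other genes within 2-fold of its mean TPM none did. IER3 came within 1.5-fold when the libraries were scaled to a median log2 ratio of 0 (0.50), scaled by a trimmed mean (0.52), recomputed without the most abundant genes (0.56) or adjusted for GC content (0.52).

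TNFAIP3 and IER3 each overlap a long noncoding gene on the opposite strand that lay the other way. WAKMAR2, which overlaps TNFAIP3, was at 1.80 TPM in the POH1 siRNA library and 3.10 TPM in the control siRNA library. IER3-AS1 was at 3.97 TPM in the POH1 siRNA library and 7.05 TPM in the control siRNA library. The sums of each pair differed by 0.60 for TNFAIP3 and 0.63 for IER3 on the log2 scale, so both stayed past 1.5-fold.

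**Figure D3:**
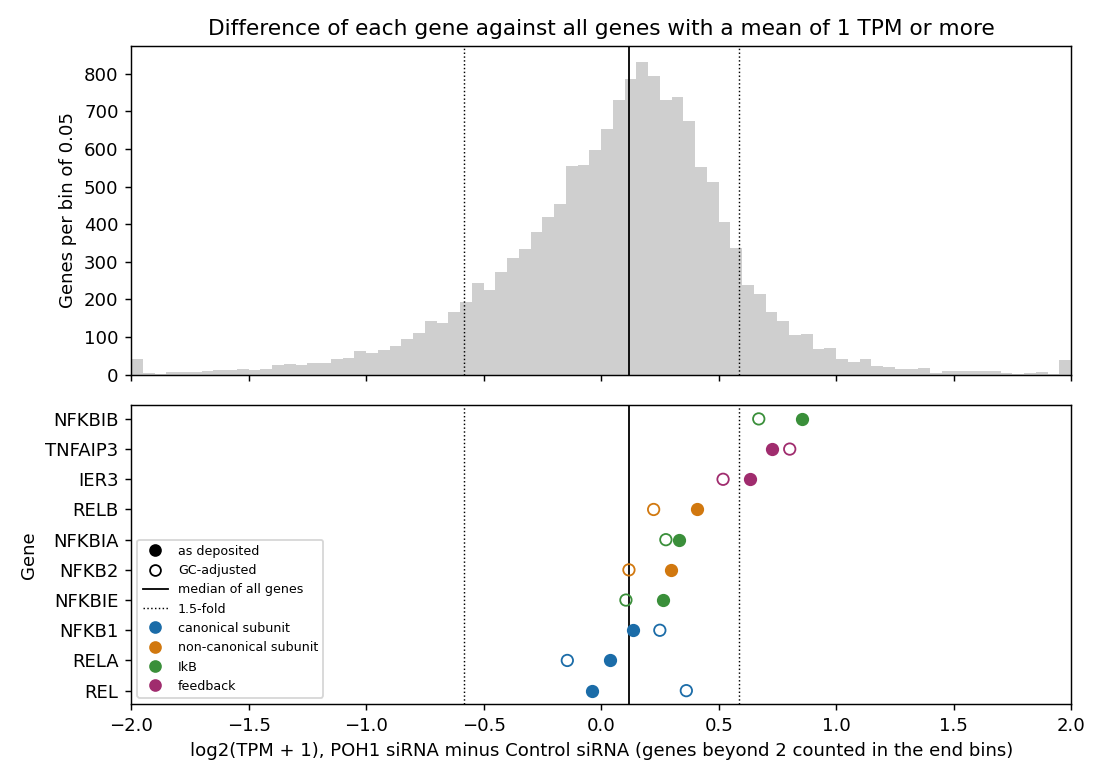
Top, number of genes reaching a mean of 1 TPM by log2 difference (POH1 siRNA minus control siRNA, with 41 genes below -2 and 36 above 2 in the end bins); bottom, the 10 genes as deposited (filled) and after GC adjustment (open), with the median of all genes (solid line) and 1.5-fold (dotted lines). NFKBIB and TNFAIP3 lie past 1.5-fold in both forms, and IER3 only as deposited. The bars and the solid line are as deposited, and the median of all genes after GC adjustment is 0.15.

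The canonical and non-canonical arms overlapped in their differences. The median log2 difference was 0.20 over the 6 canonical subunit and IkB genes, with a range of -0.04 to 0.85, and 0.35 over NFKB2 and RELB, at 0.30 and 0.41. The canonical median less the non-canonical one was -0.15. With choices made after the values were seen it was -0.09 without REL, which was under 1 TPM, and -0.31 with the canonical subunit genes alone. After GC adjustment the difference was 0.09 over all 6 genes, with 0.26 in the canonical arm and 0.17 in the non-canonical arm. The median of all genes was then 0.15. The difference was 0.08 without REL and 0.08 with the canonical subunit genes alone, the other sign in each case. With the subunit genes alone that sign depends on counting REL (0.36 after adjustment), which was under 1 TPM. NFKB1 was at 0.25 and RELA at -0.14, on opposite sides of the non-canonical median. No member of the non-canonical arm passed 1.5-fold, and of the canonical arm NFKBIB did.

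GC content moved with the differences across the whole table. Over 10114 genes whose mean reached 5 TPM, the Spearman correlation of GC content with the log2 difference was 0.46, a description across genes that share the same 2 libraries. The median difference was -0.20 for genes above 40% and up to 45% GC, 0.15 above 50% and up to 55%, and 0.31 above 60% and up to 65%. NFKB2 (62.1% GC), RELB (65.2%), RELA (61.8%), NFKBIE (61.0%) and NFKBIB (63.6%) all lay in GC-rich classes. Against genes alike in mean TPM and GC content, RELB, at 0.41, had a difference that 42.5% of 369 genes reached. For NFKB2 the share was 54.3% of 442 genes, for NFKBIE 59.7% of 698 genes and for RELA 89.1% of 622 genes. NFKB1 (48.9% GC) had a difference that 41.0% of 822 genes reached. The part of GC content in these differences was not tested.

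**Figure D4:**
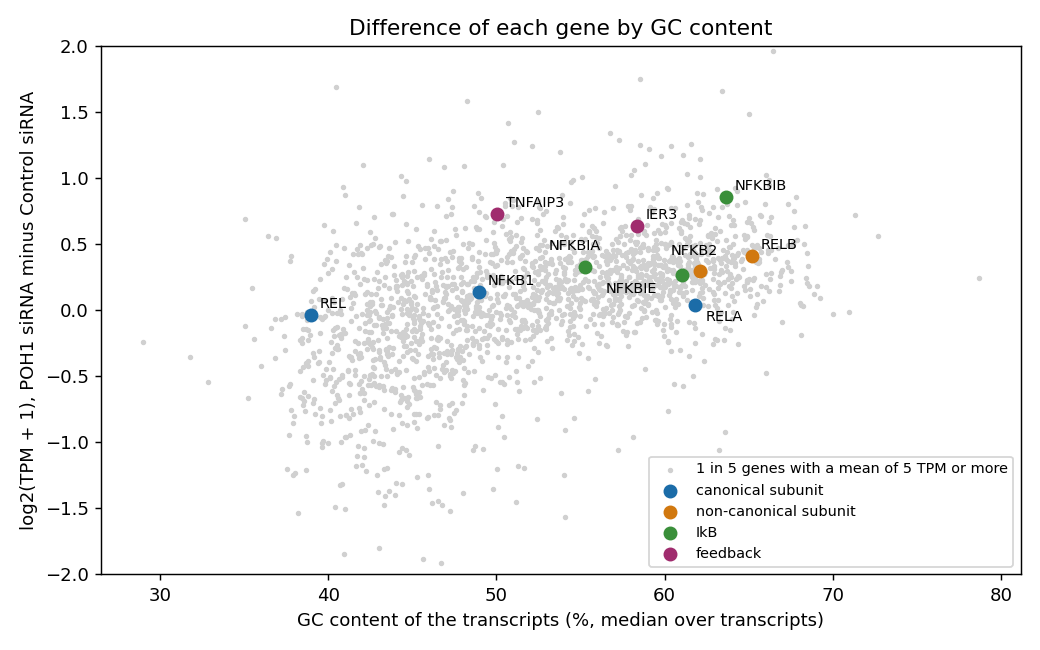
Log2 difference (POH1 siRNA minus control siRNA) against GC content (%) for the 10 genes, coloured by role, and for 1 in 5 of the genes reaching a mean of 5 TPM (grey; axis limited to differences within 2). TNFAIP3 lies in the upper part of the grey points at its GC content of 50.04%, with some of them above it, while NFKB2, NFKBIE and RELB lie nearer their middle.

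The nuclear IkB genes split. NFKBIZ, which encodes the NF-kB cofactor IkB-zeta and is itself an NF-kB target, was at 49.2 TPM in the POH1 siRNA library and 24.9 TPM in the control siRNA library, a log2 difference of 0.95, larger than that of any of the 10 genes. Of 714 genes like it in mean TPM and GC content, 0.980% had a difference as high. BCL3, a nuclear partner of p50 and p52, was at 48.7 TPM with POH1 siRNA and 47.7 TPM with control siRNA, and NFKBID at 15.6 TPM with POH1 siRNA and 14.7 TPM with control siRNA. Thus 1 of the 3 was higher and 2 lay within 1.5-fold. Over the 15008 genes 10.2% were higher and 8.88% lower, and the later list counts as deposited stand against the same shares.

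Upstream of IkB, the list of kinases and adaptors was not on one side. Of 16 genes of the IkB kinase complex and its activators, 1 was higher, 13 lay within 1.5-fold and 2 were lower. Their median log2 difference was -0.01 as deposited and 0.16 after GC adjustment, against 0.12 and 0.15 over all genes. As deposited, all 3 that passed belong to the adaptor step of interleukin 1 and Toll-like receptors. IRAK1, a kinase of that step, was at 191 TPM in the POH1 siRNA library and 78.7 TPM in the control siRNA library. MYD88, the adaptor that recruits it, was at 16.9 TPM in the POH1 siRNA library and 41.5 TPM in the control siRNA library, 2.46-fold lower. IRAK4, the kinase that acts before IRAK1, was at 3.29 TPM with POH1 siRNA and 6.10 TPM with control siRNA, but its log2 difference was -0.29 after GC adjustment. With other settings more of the 16 genes passed. MAP3K7 was lower with scaling to a median log2 ratio of 0 or by a trimmed mean. TAB3 was higher with a pseudocount of 0.1 or after GC adjustment.

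The IkB kinase subunits themselves lay within 1.5-fold. IKBKB, the canonical catalytic subunit IKK-beta, was at 29.8 TPM in the POH1 siRNA library and 20.9 TPM in the control siRNA library, a log2 difference of 0.49. CHUK, which encodes IKK-alpha, was at 4.13 TPM with POH1 siRNA and 4.40 TPM with control siRNA, and it shares exons with ERLIN1. IKBKG, the regulatory subunit, was at 30.5 TPM with POH1 siRNA and 29.4 TPM with control siRNA, a value made uncertain by a near-identical pseudogene. The ratio of IKBKB to CHUK was 7.22 in the POH1 siRNA library and 4.75 in the control siRNA library.

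Among receptors of the canonical arm, 4 of 9 had a mean of 1 TPM or more, of which 2 were higher and none lower (TNFRSF1A alone with scaling to a median log2 ratio of 0, with a trimmed mean or with a pseudocount of 5). TNFRSF1A, the main TNF receptor, was at 153 TPM in the POH1 siRNA library and 86.0 TPM in the control siRNA library. IL1RAP, the shared chain of interleukin 1 receptors, was at 2.77 TPM with POH1 siRNA and 1.38 TPM with control siRNA. IL1R1 was at 1.08 TPM with POH1 siRNA and 0.967 TPM with control siRNA, and TLR2 at 2.35 TPM with POH1 siRNA and 2.45 TPM with control siRNA. In the receptor list of the non-canonical arm, 4 of 6 passed the filter and all 4 lay within 1.5-fold. TNFRSF12A, the TWEAK receptor, was at 553 TPM in the POH1 siRNA library and 374 TPM in the control siRNA library, a log2 difference of 0.56. LTBR, the lymphotoxin beta receptor, was at 146 TPM with POH1 siRNA and 115 TPM with control siRNA. CD40 was at 4.94 TPM with POH1 siRNA and 4.46 TPM with control siRNA. TNFRSF11A lay the other way, at 7.83 TPM with POH1 siRNA and 8.61 TPM with control siRNA.

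In the kinase module of the non-canonical arm, 1 of 6 genes was higher and 5 lay within 1.5-fold. The higher one was MAP3K14, which encodes NIK, at 35.5 TPM in the POH1 siRNA library and 20.5 TPM in the control siRNA library. The antisense gene MAP3K14-AS1, which overlaps its exons, was at 12.2 TPM with POH1 siRNA and 7.83 TPM with control siRNA. TRAF3 and TRAF2, adaptors that keep NIK low in resting cells, were at 15.96 TPM and 29.7 TPM with POH1 siRNA and at 13.8 TPM and 20.8 TPM with control siRNA. BIRC2 was at 3.85 TPM with POH1 siRNA and 4.23 TPM with control siRNA, and BIRC3, the other ubiquitin ligase of that complex, at 2.48 TPM with POH1 siRNA and 3.41 TPM with control siRNA. Of 6 genes listed as non-canonical targets, 5 (CXCL12, CXCL13, CCL19, CCL21 and TNFSF13B) were listed at 0 in both libraries.

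**Figure D5:**
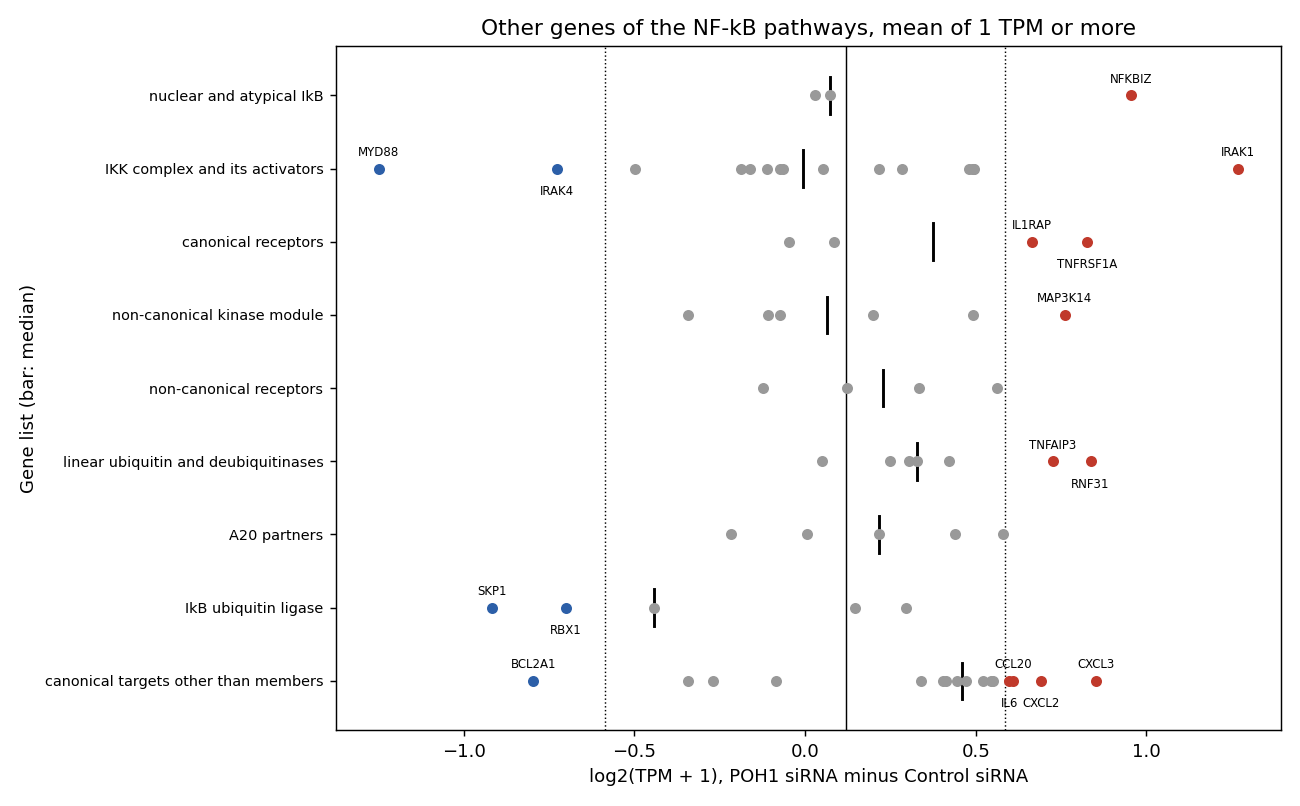
Log2 difference (POH1 siRNA minus control siRNA) of other NF-kB pathway genes that reached a mean of 1 TPM, 1 row per list, with genes past 1.5-fold higher (red) or lower (blue) named, the list median as a black bar, the median of all genes as a solid line and 1.5-fold as dotted lines. The IkB ubiquitin ligase list has its median at -0.44 and the canonical target list at 0.46.

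Among genes that build and remove ubiquitin signals around A20, TNFAIP3 and RNF31 were higher, and the others with a mean of 1 TPM or more lay within 1.5-fold. Of 7 genes of linear ubiquitin chains and deubiquitinases, TNFAIP3 among them, 2 were higher and none lower, and the median was 0.33, against 0.12 over the 15008 genes. RNF31, the catalytic subunit of the linear ubiquitin ligase, was at 69.3 TPM in the POH1 siRNA library and 38.3 TPM in the control siRNA library. It shares same-strand exons with the gene model ENSG00000259529, at 12.9 TPM with POH1 siRNA and 6.87 TPM with control siRNA. PSME2, which overlaps its exons from the opposite strand, was at 139 TPM with POH1 siRNA and 171 TPM with control siRNA. RBCK1, another subunit of that ligase, was at 221 TPM with POH1 siRNA and 165 TPM with control siRNA, and OTUD7B, a deubiquitinase related to A20, at 11.7 TPM with POH1 siRNA and 9.16 TPM with control siRNA. CYLD, a deubiquitinase that also restrains NF-kB, was at 13.7 TPM with POH1 siRNA and 13.2 TPM with control siRNA, so the ratio of TNFAIP3 to CYLD was 2.55 in the POH1 siRNA library and 1.57 in the control siRNA library. Of the 6 A20 partners, 5 passed the filter and all 5 lay within 1.5-fold. TNIP1, which encodes the A20-binding protein ABIN1, was at 587 TPM in the POH1 siRNA library and 433 TPM in the control siRNA library. RNF11 was at 20.3 TPM with POH1 siRNA and 13.2 TPM with control siRNA, past 1.5-fold after GC adjustment (0.94). As deposited, 4 of the 5 were above 0 and 1 was below. The latter was TAX1BP1, at 34.9 TPM with POH1 siRNA and 40.7 TPM with control siRNA.

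The ubiquitin ligase that marks IkB proteins for the proteasome had its median on the lower side, at -0.44 over 5 genes and -0.20 after GC adjustment. SKP1, its linker subunit, was at 35.8 TPM in the POH1 siRNA library and 68.4 TPM in the control siRNA library. RBX1, the RING subunit, was at 46.3 TPM with POH1 siRNA and 75.8 TPM with control siRNA. These 2 were lower and 3 lay within 1.5-fold, and after GC adjustment neither stayed past 1.5-fold, at -0.58 for SKP1 and -0.44 for RBX1, while the scaffold gene CUL1 passed on the higher side. BTRC, an F-box protein that recognises phosphorylated IkB, was at 4.61 TPM with POH1 siRNA and 6.63 TPM with control siRNA. FBXW11, the other F-box gene of the list, lay the other way, at 18.2 TPM with POH1 siRNA and 16.3 TPM with control siRNA. CUL1 was at 58.3 TPM with POH1 siRNA and 47.3 TPM with control siRNA.

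Of 20 canonical targets outside the 10 genes, 19 were matched by symbol and 16 had a mean of 1 TPM or more. Of these, 4 were higher, 11 lay within 1.5-fold and 1 was lower, with a median of 0.46. Over all 15008 genes 10.2% were higher and 8.88% lower, with a median of 0.12. With scaling to a median log2 ratio of 0 the count was 1 higher and 1 lower, with a median of 0.33. Of all genes 6.4% were then higher and 12.3% lower. After GC adjustment the count was 6 higher and none lower, against 12.6% and 5.19% of all genes. The 4 higher as deposited were CXCL3 (326 TPM in the POH1 siRNA library and 180.2 TPM in the control siRNA library), CXCL2 (171 TPM with POH1 siRNA and 106 TPM with control siRNA), CCL20 (42.7 TPM with POH1 siRNA and 27.6 TPM with control siRNA) and IL6 (267 TPM with POH1 siRNA and 176 TPM with control siRNA). CXCL2 and CXCL3 are close copies, which makes their separate values uncertain. The lower one was BCL2A1, a survival gene of the BCL2 family, at 12.9 TPM in the POH1 siRNA library and 23.1 TPM in the control siRNA library. Some of these targets appear in earlier results on the same libraries, so their direction is no independent support for that of the 10 genes.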

How the data were processed

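Per the labels' protocols, Trizol was used to extract RNA and an mRNA kit to prepare Illumina libraries. The submitters' processing notes name CASAVA, HISAT2 and build hg19; their versions, the annotation, the use of strand and the tool behind the TPM values are not given in the sources read for this text. The deposited table holds TPM values made by the authors, 1 column per library, and TPM shows relative, not absolute, abundance. Symbols came from a name table matched by Ensembl identifier (57392 of 58174). GENCODE release 29 (GRCh38) gave GC content, the median over a gene's transcripts, and exon overlaps, which are not named for every gene; none of its coordinates are printed.

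Differences are log2(TPM + 1), POH1 siRNA minus control siRNA, which understates changes of low genes. GC adjustment subtracted a running median over 501 genes of at least 5 TPM and added back the overall median. The calculations, in Python 3.11.15 with pandas 2.3.3, were tested on simulated data. The members, lists and thresholds were chosen with earlier results of these data known. Named were the 10 genes, PSMD14, up to 4 genes per list by size of difference, a fixed set of regulators, and genes overlapping a named gene. BIRC2, FBXW11, IL6 and TAB3 were named after their values were seen. Alternatives were other pseudocounts, scalings, filters and thresholds, GC adjustment and sums with overlapping genes; the sums with opposite-strand genes, the runs without REL and with canonical subunits alone, and the threshold on the TPM ratio were added after the data were seen. No paired analysis was possible because each group held 1 library.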

Additional observations from a re-analysis of the deposited data

How the results depend on the processing

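NFKBIB (0.67 to 0.87) and TNFAIP3 (0.59 to 0.80) stayed past 1.5-fold under all 7 alternatives that could change them, and IER3 under 3 of 7 (0.50 to 0.63). RELA ran from -0.14 to 0.04 and REL from -0.12 to 0.36, so neither has a settled direction. The 5 other genes stayed above 0 and within 1.5-fold. Of these, NFKB1 fell to 0.0045 with scaling to a median log2 ratio of 0 and to 0.03 with a trimmed mean. With a threshold of 2-fold 0 of the 10 genes were counted, and with a lower one (0.32 on the log2 scale) 5 were, against 2.15% and 28.7% of all genes higher. The canonical less non-canonical median difference was 0.0918 with GC adjustment in place of -0.15, and 0.0789 with GC adjustment both without REL and with the canonical subunits alone. The sign of the last depends on counting REL, which was under 1 TPM. The cause was not tested. Scaling to a median log2 ratio of 0 removed the median difference of all genes, 0.12 as deposited, and 6.40% of genes were then higher and 12.3% lower, so 34.2% of called genes were higher in place of 53.5%; after GC adjustment 12.6% were higher and 5.19% lower, or 70.8% of those called. Without a filter on low values 6.40% of genes were past 1.5-fold in either direction, in place of 19.1%. Unknown depth and 1 library per group limit every value, and REL most of all.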
